A study of Mus musculus with 5 samples.

Results

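Mast cell genes were followed through RNA from the mouse iridocorneal angle, the tissue ring between iris and cornea where aqueous humor leaves the eye. The 8 genes were taken by symbol, Cpa3, Mcpt4, Tpsb2, Cma1, Ms4a2, Fcer1a, Hdc and Mrgprb1, from 56941 identifiers in the count table. The rule itself uses no measured value, but the genes were chosen with earlier results of these data known. The comparison was between DBA/2J mice, which carry a premature stop allele of Gpnmb and develop pigmentary glaucoma, and DBA/2J-Gpnmb+/SjJ mice (Gpnmb+), which carry the functional allele on the same DBA/2J background. Both strains carry the Tyrp1 b allele, were untreated and were about 12 months old, and the study's methods state males and females for both genotypes. DBA/2J was represented by 3 pools and Gpnmb+ by 2. A pool is described as the angles of 3 mice, although the library names list 3 animals for DBA/2J and only 2 for Gpnmb+. The iris and ciliary body were removed before the angle was trimmed out, but per the study's methods remnants of both stayed attached.

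Mast cells are resident immune cells of connective tissue, and in the eye they are known from the conjunctiva, the limbus and the uvea. They store proteases, histamine and proteoglycans in granules and release them when antigen crosslinks IgE held on the high-affinity IgE receptor, or when ligands reach their Mas-related G protein-coupled receptors. Their development and survival depend on stem cell factor, the product of Kitl, acting on the receptor tyrosine kinase Kit. In connective tissue the granule proteases are chymases, tryptases and carboxypeptidase A3, while in mucosa another chymase pair, Mcpt1 and Mcpt2, is typical.

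Mast cell transcripts were present in every pool and none of the 8 genes was called different between the genotypes. All 12 mast cell markers, the members together with Kit, Gata2, Slc18a2 and Mrgprb2, had at least 10 counts in each of the 5 pools, and the lowest count was 35, for Mrgprb2. The members themselves ran from 55 to 2703 counts, so all 8 passed the minimum of 10 counts in at least 1 pool. A call needed an adjusted p-value of at most 0.05 (edgeR quasi-likelihood, Benjamini-Hochberg over 19713 genes) together with a 1.5-fold change. Of all genes tested, 157 were called, or 0.796%, against 0 of 8 members. With the p-value left unadjusted and the fold minimum kept, 8.67% of all genes passed, and 0 of 8 members had an unadjusted p under 0.05 whatever their fold. DESeq2's Wald test called 4.7% of all genes and 0 of 8 members, and 1 member, Hdc, had an unadjusted p under 0.05 there. The pools of the genotypes overlapped for every member, while they did not overlap for 34.5% of all genes tested. The median log2 fold change of the members, DBA/2J over Gpnmb+, was -0.03, beside -0.02 over all genes. In bulk tissue, fewer mast cells and less RNA per mast cell cannot be told apart.

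Counts on genes summed to 43900661 in the shallowest pool and 49837758 in the deepest. Gpnmb had 1946 to 2234 counts in DBA/2J pools and 110568 to 129659 in Gpnmb+ pools, as the labels state. Sex-linked RNA differed between pools, with Xist counts of 0 to 2417 in DBA/2J and 7843 to 9152 in Gpnmb+. The Y-linked gene Ddx3y ranged from 1567 to 4168 counts in DBA/2J, whereas the Gpnmb+ pools held 0 and 4, and Kdm5d, Uty and Eif2s3y had at most 1 count in a Gpnmb+ pool, which goes against the males stated for that genotype. Of 5 sex-linked genes, 4 were called higher in DBA/2J, and genotype and sex composition cannot be told apart for any gene here. For 1 gene, an exact rank test of 3 pools against 2 could reach no two-sided p below 0.2. The p-values therefore come from the model across all genes and measure the spread between pools. The trabecular meshwork, the drainage tissue of the angle, was represented by Myoc at 7106 to 26147 counts and Mgp at 24021 to 35440.

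The 4 granule proteases were the most abundant members. Cpa3 (chromosome 3, 20269774 to 20296362, GRCm39) encodes carboxypeptidase A3, which trims C-terminal residues and is stored mainly in mast cells. It had 35.3, 27.2 and 41.6 CPM (counts per 1000000, with TMM-scaled library sizes) in the DBA/2J pools numbered 1 to 3, and 33.4 and 38.3 CPM in Gpnmb+ pools 1 and 2. The Gpnmb+ pools lay inside the range of the DBA/2J pools. Mean levels were 34.7 ± 7.18 CPM (SD, n = 3) for DBA/2J against 35.9 ± 3.51 (SD, n = 2) in Gpnmb+, and the log2 fold change was -0.05 (SE 0.18, edgeR quasi-likelihood adjusted p = 0.928). Its 95% confidence interval ran from 0.709-fold to 1.32-fold, which leaves out a change of 1.5-fold in either direction.

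The chymase-family genes Mcpt4 and Cma1 lie on chromosome 14 at 56297086 to 56299770 and 56178908 to 56182132. Mcpt4 encodes the main chymotrypsin-like chymase of connective tissue mast cells, and Cma1 a relative that is stored together with carboxypeptidase A3. Mcpt4 measured 59.2, 42.3 and 59.5 CPM in the DBA/2J pools and 41.5 and 55.3 CPM in Gpnmb+ pools 1 and 2. Cma1 measured 49.5, 35.1 and 54.0 CPM in DBA/2J and 49.3 and 48.5 CPM in Gpnmb+. Each genotype thus had a pool near the bottom of the Mcpt4 range, whereas for Cma1 only DBA/2J pool 2 stood low. The log2 fold change of Mcpt4 was 0.15 (SE 0.20, edgeR adjusted p = 0.761, interval 0.797-fold to 1.54-fold). That of Cma1 was -0.08 (SE 0.18, edgeR adjusted p = 0.865, interval 0.693-fold to 1.29-fold).

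Tpsb2 (chromosome 17, 25585170 to 25588079) encodes a tryptase that is stored as a heparin-bound tetramer. It measured 28.0, 19.1 and 29.2 CPM in the DBA/2J pools and 19.7 and 17.9 CPM in Gpnmb+. DBA/2J pools 1 and 3 were above both Gpnmb+ pools, and DBA/2J pool 2 lay between them. The means were 25.4 ± 5.53 CPM (SD, n = 3) and 18.8 ± 1.23 CPM (SD, n = 2). The log2 fold change of Tpsb2 was 0.43 (SE 0.20, edgeR adjusted p = 0.361), with an interval from 0.964-fold to 1.89-fold, and it did not pass the test.

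The high-affinity IgE receptor is built from an alpha chain that binds IgE (Fcer1a), a beta chain that amplifies the signal (Ms4a2) and a gamma chain that other immune cells also use (Fcer1g). Fcer1a (chromosome 1, 173048851 to 173054781) measured 3.06, 1.56 and 2.85 CPM in the DBA/2J pools and 2.84 and 2.19 CPM in Gpnmb+. Ms4a2 (chromosome 19, 11592887 to 11601083) measured 2.11, 1.63 and 2.42 CPM in DBA/2J and 2.29 and 2.00 CPM in Gpnmb+. Both chains were lowest in DBA/2J pool 2. The other pools ran from 2.19 to 3.06 CPM for Fcer1a and from 2.00 to 2.42 CPM for Ms4a2. The log2 fold change was -0.01 for Fcer1a (SE 0.34, edgeR adjusted p = 0.989) and -0.06 for Ms4a2 (SE 0.25, edgeR adjusted p = 0.932). At counts of 67 to 144 their intervals were wider, 0.560-fold to 1.75-fold for Fcer1a and 0.627-fold to 1.47-fold for Ms4a2. The shared gamma chain Fcer1g, which macrophages also express, measured 46.9 to 63.5 CPM, and its log2 fold change was 0.20 (SE 0.12, edgeR adjusted p = 0.492).

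Hdc (chromosome 2, 126435558 to 126461318) encodes histidine decarboxylase, the enzyme that makes histamine, and neutrophils and other myeloid cells can also express it. Its counts were 255, 60 and 176 across the DBA/2J pools against 97 and 55 counts in Gpnmb+, or 5.74, 1.40, 3.95, 1.91 and 1.12 CPM. Of all members it varied the most within a genotype relative to its level. DBA/2J pools 1 and 3 were above both Gpnmb+ pools and DBA/2J pool 2 was among the lowest. The mean was 3.69 ± 2.18 CPM (SD, n = 3) for DBA/2J against 1.52 ± 0.557 CPM (SD, n = 2) in Gpnmb+. Hdc had a log2 fold change of 1.28 (SE 0.60, edgeR adjusted p = 0.372), with an interval from 0.875-fold to 6.75-fold. DESeq2's Wald test gave Hdc an unadjusted p of 0.0339 and an adjusted p of 0.227, and it was not called.

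Mrgprb1 (chromosome 7, 48093861 to 48106093) encodes a member of the Mas-related G protein-coupled receptor family. It measured 4.48, 3.08 and 3.99 CPM in the DBA/2J pools and 4.28 and 3.64 CPM in Gpnmb+, with the low value again in DBA/2J pool 2. Its log2 fold change was -0.04 (SE 0.22, edgeR adjusted p = 0.949). The interval, 0.669-fold to 1.41-fold, left out a change of 1.5-fold either way, as it did for 3 members in all, Cpa3, Cma1 and Mrgprb1. The related receptor Mrgprb2, through which basic peptides and drugs activate mouse mast cells, had 35 to 52 counts.

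**Figure D1:**
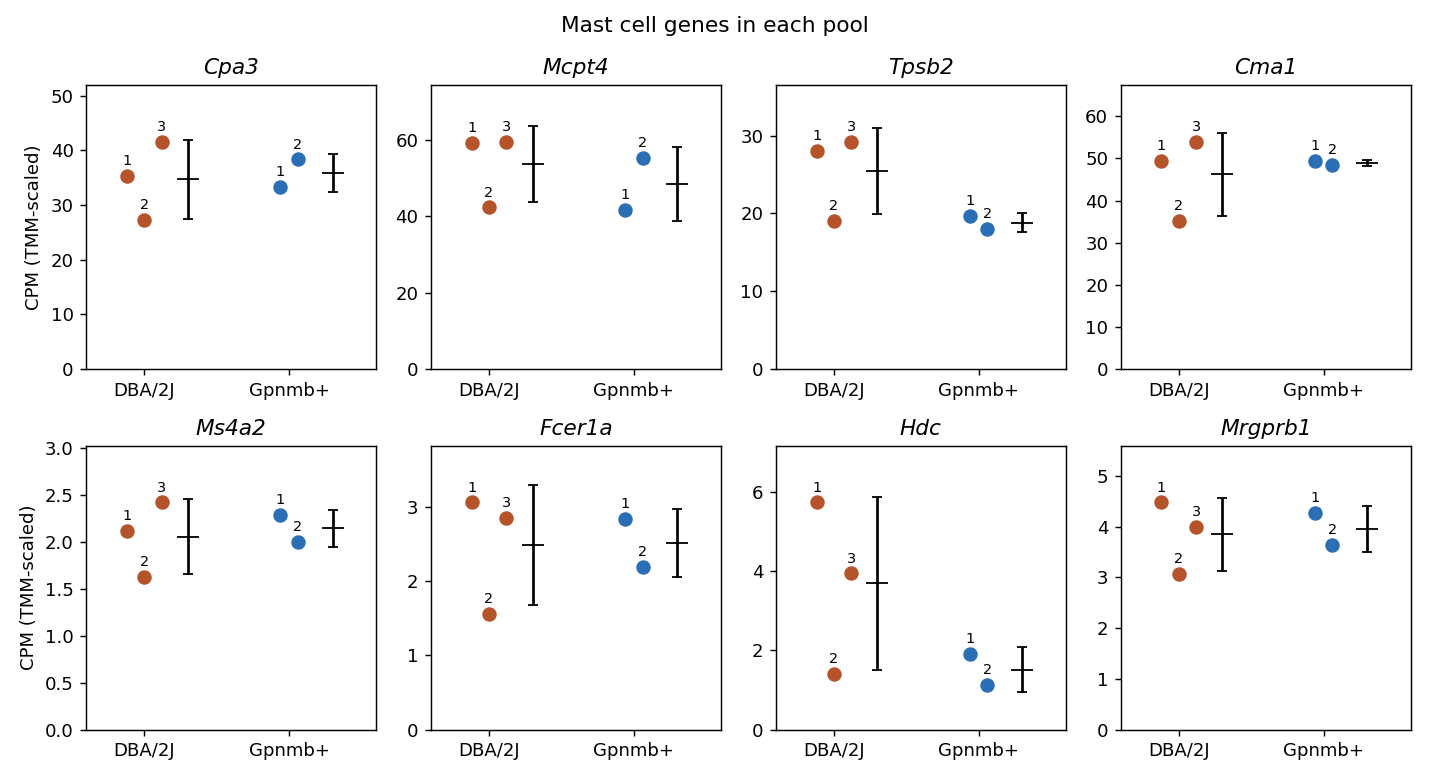
CPM of each of the 8 mast cell genes, 1 panel per gene on a linear axis from 0, with numbered points for the 3 DBA/2J and 2 Gpnmb+ pools and bars for the mean and SD. The pools of the genotypes overlap for all 8 genes, and relative to its level Hdc has the widest spread, from 1.12 to 5.74 CPM.

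**Figure D2:**
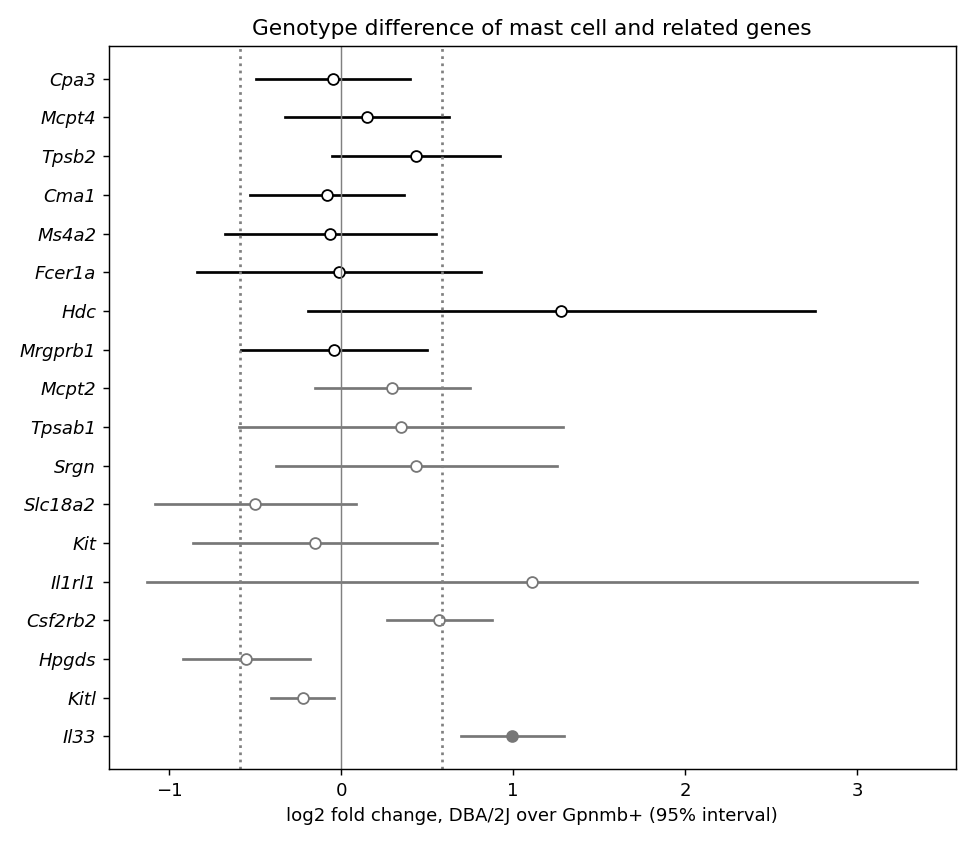
Log2 fold change of the 8 members (black) and 10 related genes (grey), DBA/2J over Gpnmb+, from edgeR's quasi-likelihood fit, with bars for the 95% confidence interval, dotted lines at 1.5-fold and a filled point for a called gene. Every member's interval includes 0, those of Cpa3, Cma1 and Mrgprb1 stay within 1.5-fold, Hdc and Tpsb2 are the members farthest to the right at 1.28 and 0.43, and Il33, at 1.00, is the called gene.

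Compared per length of their exons, as CPM per kilobase (RPKM), the members fell into tiers. Mcpt4 was at 37.5 to 53.7 RPKM over the 5 pools and Cma1 at 32.2 to 49.5, so the chymases did not differ beyond their spread. Cpa3 followed at 17.0 to 26.0 RPKM, then Tpsb2 at 8.19 to 13.3 and Fcer1a at 1.56 to 3.07, none of which overlapped its neighbour. Mrgprb1, at 0.734 to 1.07 RPKM, overlapped Ms4a2 at 0.580 to 0.861, and that overlapped Hdc at 0.164 to 0.834. The protease genes were the highest of the members on this per-length scale in every pool.

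The summed level of the 8 genes was 187.4, 131.3 and 197.4 CPM in the DBA/2J pools and 155.3 and 168.9 CPM in Gpnmb+ pools 1 and 2. The mean was 172.0 ± 35.6 CPM (SD, n = 3) for DBA/2J against 162.1 ± 9.69 CPM (SD, n = 2) in Gpnmb+, a ratio of 1.06, and both Gpnmb+ pools lay between the DBA/2J extremes. In DBA/2J the shares of the proteases in this sum varied less than the sum itself, and in Gpnmb+ those of Mcpt4, Tpsb2 and Cma1 varied more. In DBA/2J, Mcpt4 took 31.3 ± 1.06% (SD, n = 3), Cma1 26.8 ± 0.473%, Cpa3 20.2 ± 1.20% and Tpsb2 14.8 ± 0.208%. In Gpnmb+ the same genes took 29.7 ± 4.21% (SD, n = 2), 30.2 ± 2.19%, 22.1 ± 0.849% and 11.7 ± 1.46%. Hdc took 3.06, 1.06 and 2.00% in DBA/2J and 1.23 and 0.666% in Gpnmb+.

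The members were low together in DBA/2J pool 2. Among the DBA/2J pools, all 8 had their lowest level there, as did 30.5% of all genes tested, and 5 of 8 had their lowest level of all 5 pools there, as did 16.1% of all genes. On the log2 CPM scale, pool 2 was below the mean of DBA/2J pools 1 and 3 by 0.52 (median over the members), with differences of -0.49 for Cpa3, -0.49 for Mcpt4, -0.58 for Tpsb2 and -0.56 for Cma1. For the less abundant genes the differences were -0.46 for Ms4a2, -0.90 for Fcer1a, -1.74 for Hdc and -0.45 for Mrgprb1. The median over all genes was 0.0012. Of 5 sex-linked genes, 1, Xist, had its lowest level of all 5 pools in DBA/2J pool 2, and the median difference over the 5 was 1.05. The part of sex composition in the members' low level there was not tested. The contrast of pool 2 was singled out after the values were seen and is a description of that library.

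**Figure D3:**
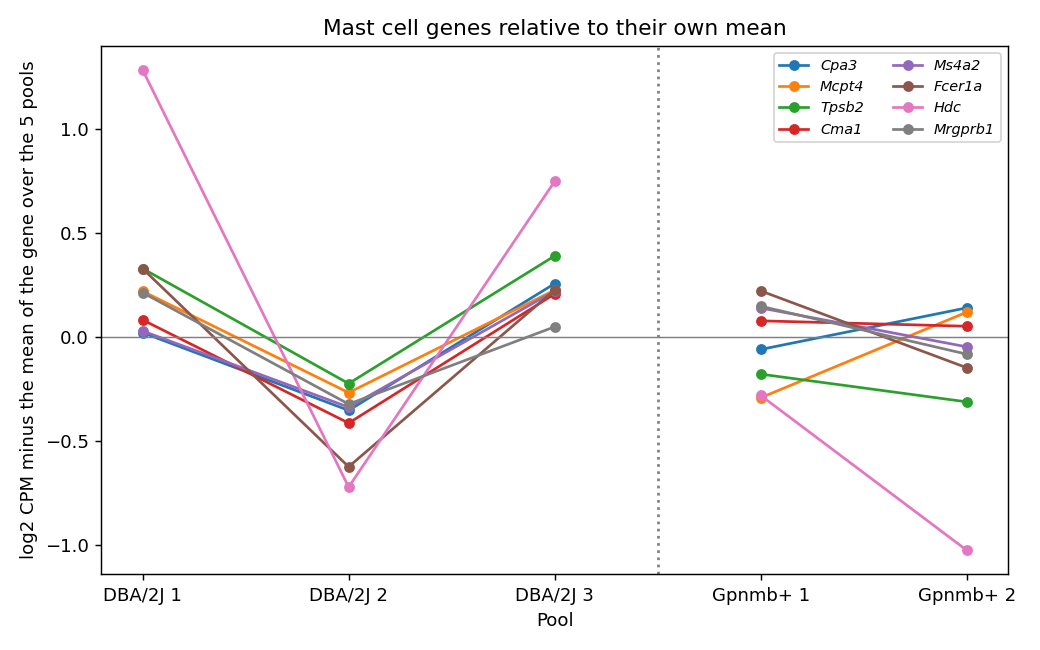
Level of each member in each pool relative to its own mean, on a log2 scale, with a line joining the points of 1 gene that implies no order of the pools. All 8 genes are lowest among the DBA/2J pools in pool 2, by 0.45 to 1.74 log2 units below the mean of pools 1 and 3.

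Promoters are shown for the 5 genes of the protease and IgE receptor groups that had a RefSeq entry and at least 1 GATAA. This is the core of the site bound by factors such as Gata2, a regulator of mast cell development. The parts of such sites and of mast cell content in the members' shared variation across the pools were not tested. RefSeq windows from 250 bases before to 50 after the start (GRCm38.p6) were matched for 7 of the 8 members. The letters GATAA were searched on both strands, so capitals mark GATAA or its complement TTATC.
Cpa3 (chr3:20242132-20242431, minus strand): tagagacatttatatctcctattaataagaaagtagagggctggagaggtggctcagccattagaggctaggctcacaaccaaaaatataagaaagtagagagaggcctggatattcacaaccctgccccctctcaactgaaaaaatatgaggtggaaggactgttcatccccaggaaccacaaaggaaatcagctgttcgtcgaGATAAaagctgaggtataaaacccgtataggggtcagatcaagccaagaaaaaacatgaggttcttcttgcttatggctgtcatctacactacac
Mcpt4 (chr14:56062261-56062560, minus strand): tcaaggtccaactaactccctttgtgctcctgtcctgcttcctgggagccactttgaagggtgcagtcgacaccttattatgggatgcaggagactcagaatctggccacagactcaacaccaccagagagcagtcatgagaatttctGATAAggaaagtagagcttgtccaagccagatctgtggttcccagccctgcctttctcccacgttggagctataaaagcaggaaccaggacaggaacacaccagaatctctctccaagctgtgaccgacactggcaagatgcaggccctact
Cma1 (chr14:55944626-55944925, minus strand): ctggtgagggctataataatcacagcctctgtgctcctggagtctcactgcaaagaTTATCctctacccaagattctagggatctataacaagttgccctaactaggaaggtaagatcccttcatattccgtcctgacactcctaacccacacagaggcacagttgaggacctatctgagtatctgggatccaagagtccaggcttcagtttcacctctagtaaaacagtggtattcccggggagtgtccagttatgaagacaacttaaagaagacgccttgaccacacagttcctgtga
Ms4a2 (chr19:11623670-11623969, minus strand): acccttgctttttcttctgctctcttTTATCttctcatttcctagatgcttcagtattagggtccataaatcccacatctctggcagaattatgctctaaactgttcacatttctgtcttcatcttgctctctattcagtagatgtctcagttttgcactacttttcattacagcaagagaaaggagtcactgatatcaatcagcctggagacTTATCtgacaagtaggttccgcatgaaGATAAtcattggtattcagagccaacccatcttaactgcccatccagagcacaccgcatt
Fcer1a (chr1:173227180-173227479, minus strand): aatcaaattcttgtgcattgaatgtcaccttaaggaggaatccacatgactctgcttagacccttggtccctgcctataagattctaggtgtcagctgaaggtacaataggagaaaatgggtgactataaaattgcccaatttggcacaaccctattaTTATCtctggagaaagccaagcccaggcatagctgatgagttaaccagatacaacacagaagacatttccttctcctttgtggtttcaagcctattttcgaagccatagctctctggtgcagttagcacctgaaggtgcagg
GATAA on either strand was found in 6 of 7 member windows and in 25.4% of all 32851 windows of this length. The longer AGATAA, which contains it, was in 3 of 7 and in 11.2%. The CATGTG E-box, of the kind that Mitf binds, was in 1 of 7 and in 14.2%, and any CANNTG in 5 of 7 and in 72.3%. TATAA, the core of the TATA box, was in 4 of 7 and in 24.9%. The nearest GATAA began 45 bases before the start in Cpa3, 102 in Mcpt4, 194 in Cma1 and 92 in Fcer1a, while Ms4a2 had 3, at 224, 37 and 10 bases before it. Mrgprb1 had 1 at 41 bases inside the transcript and Hdc had 0. These are letter matches, not measured binding. Gata2 itself had 256 to 378 counts and a log2 fold change of -0.08 (edgeR adjusted p = 0.860).

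Of 10 other granule proteases, 8 passed the count minimum and 0 were called. Mcpt2, the chymase usually described in mucosal mast cells, was more abundant than any other protease measured here, with 97.7, 70.7 and 109.3 CPM in DBA/2J and 72.8 and 77.7 CPM in Gpnmb+. On the per-length scale it reached 66.6 to 103 RPKM, above the highest Mcpt4 pool at 53.7. Its log2 fold change was 0.30 (SE 0.19, edgeR adjusted p = 0.488), and DBA/2J pool 2 was again the lowest pool. Its mucosal partner Mcpt1 was near the floor in all pools but 1. Its DBA/2J pools held 6, 2 and 38 counts and its Gpnmb+ pools 2 and 0, under the floor of 3 counts, so no fold is given. Tpsab1, the other tryptase of the granule, had 326, 141 and 207 counts in DBA/2J against 250 and 150 in Gpnmb+ (log2 fold change 0.35, edgeR adjusted p = 0.718). Mcpt9 had 144 to 179 counts, Ctsg 31 to 53, Cma2 25 to 68 and Gzmb 9 to 34. Tpsg1 had 5 to 12 counts with a log2 fold change of -0.65 (edgeR adjusted p = 0.589).

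**Figure D4:**
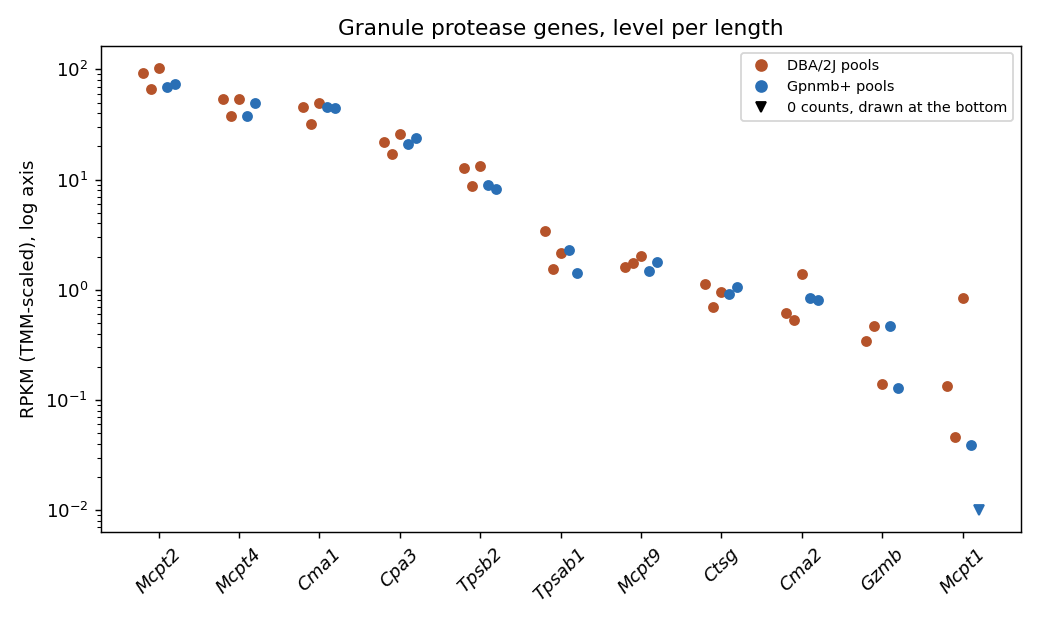
Length-scaled level (RPKM) of the mast cell granule proteases in the 5 pools, on a log axis, with points for single pools coloured by genotype and a triangle at the bottom for a pool with 0 counts. Mcpt2 is highest at 66.6 to 103 RPKM, followed by Mcpt4 and Cma1, and the genotypes overlap for each of these 3.

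Across 77 further genes of mast cell biology, 68 passed the count minimum, 1 was called higher in DBA/2J and 0 lower, where 0.502% of all genes were called higher. Their median log2 fold change was 0.07, 41 were above 0 and 26 below, and the pools of the genotypes did not overlap for 20 of 68, against 34.5% of all genes. The single call was Il33, an alarmin that activates mast cells and is held in the nuclei of barrier and stromal cells. Il33 measured 358, 335 and 347 CPM in DBA/2J and 193 and 154 CPM in Gpnmb+. All DBA/2J pools were above both Gpnmb+ pools, the log2 fold change was 1.00 (SE 0.12) and the edgeR adjusted p was 0.0376. Leaving out any DBA/2J pool or Gpnmb+ pool 2 raised the adjusted p of Il33 to 0.115 to 0.125 and ended the call, while its log2 fold change in those fits was 0.84 to 1.02. Its receptor Il1rl1, present on mast cells and other immune cells, measured 52.0, 5.99 and 10.6 CPM in DBA/2J and 13.4 and 7.79 CPM in Gpnmb+. Only DBA/2J pool 1 stood high, and the log2 fold change of Il1rl1 was 1.11 (SE 0.92, edgeR adjusted p = 0.611).

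Of the other factors acting on mast cells, 6 of 10 were tested with Il33 among them. Kitl measured 103 to 109 CPM in DBA/2J and 124 CPM in both Gpnmb+ pools (log2 fold change -0.22, SE 0.07, edgeR adjusted p = 0.238). Cxcl12, a chemokine that attracts mast cell precursors among many cells, measured 292 to 348 CPM in DBA/2J and 391 and 439 CPM in Gpnmb+ (log2 fold change -0.34, SE 0.12, edgeR adjusted p = 0.243). For both genes the pools did not overlap, but neither passed the test. Ccl2, a chemokine for monocytes, had a log2 fold change of 0.81 (SE 0.55, edgeR adjusted p = 0.528) and was highest in DBA/2J pool 1, at 22.2 CPM. Its log2 fold change was 0.16 without that pool and 1.40 without Gpnmb+ pool 1. The cytokines Il3, Il4, Il9 and Il13 had at most 7 counts in any pool and were not tested.

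Among 17 further surface receptors, 15 were tested and 0 called. Kit, which melanocytes express as well as mast cells, measured 76.7, 122.0 and 72.4 CPM in DBA/2J and 77.2 and 123.6 CPM in Gpnmb+ (log2 fold change -0.15, SE 0.29, edgeR adjusted p = 0.840). It was high in pool 2 of each genotype, while the members were low in DBA/2J pool 2. Enpp3, a basophil and mast cell activation marker also found in epithelia, was likewise highest in pool 2 of each genotype, at 529 and 646 CPM against 316 to 346 CPM elsewhere (log2 fold change -0.33, edgeR adjusted p = 0.678). Csf2rb2 and Csf2rb, beta chains of receptors for interleukin-3 and related cytokines, had log2 fold changes of 0.57 (SE 0.12, edgeR adjusted p = 0.110) and 0.49 (SE 0.15, edgeR adjusted p = 0.199). DESeq2's Wald test gave Csf2rb2 an adjusted p of 0.0041 at a log2 fold change of 0.58, just short of the 1.5-fold minimum, and did not call it. Their DBA/2J pools were all above the Gpnmb+ pools, as were those of the granule membrane protein Cd63 (0.25, edgeR adjusted p = 0.253), the inhibitory receptor Cd300a (0.30, edgeR adjusted p = 0.369) and Siglece (0.66, edgeR adjusted p = 0.380). In all, the pools did not overlap for 5 of the 15 receptors tested, beside 34.5% of all genes. Il3ra and Milr1 had log2 fold changes of 0.09 and -0.24, with adjusted p-values of 0.817 and 0.594 in edgeR's test.

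Of the 7 genes for the granule matrix, amine storage and histamine breakdown, 0 were called. Srgn, the proteoglycan core to which granule proteases bind, measured 89.5, 48.2 and 55.5 CPM in DBA/2J and 60.2 and 34.9 CPM in Gpnmb+ (log2 fold change 0.44, SE 0.33, edgeR adjusted p = 0.578). Slc18a2, the vesicular transporter that loads histamine and other amines, had 82, 72 and 102 counts in DBA/2J against 124 and 148 in Gpnmb+ (log2 fold change -0.50, edgeR adjusted p = 0.378). Aoc1, the diamine oxidase that degrades extracellular histamine, had 33, 100 and 43 counts in DBA/2J against 205 and 189 in Gpnmb+. All DBA/2J pools of Aoc1 were below both Gpnmb+ pools, with a log2 fold change of -1.55 (SE 0.48, edgeR adjusted p = 0.207). DESeq2's Wald test gave Aoc1 an adjusted p of 0.0476 and called it lower, while ashr moderation of the same fit shrank its log2 fold change to -0.58, short of the 1.5-fold minimum, and ended that call. Without DBA/2J pool 2 edgeR gave Aoc1 a log2 fold change of -2.21. Hnmt, which methylates histamine inside cells, had a log2 fold change of 0.06 (edgeR adjusted p = 0.825). Rab27b, Ndst2 and Chst15, for granule transport and heparin sulfation, had log2 fold changes of 0.09, -0.19 and -0.22, with edgeR adjusted p-values of 0.717, 0.468 and 0.315. Of 4 histamine receptors, 3 were tested and 0 called.

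Of 12 genes for signalling below the IgE receptor, 12 were tested and 0 called. The kinases Lyn, Fyn, Syk and Btk had log2 fold changes of 0.05, 0.07, 0.09 and 0.13, and the phospholipases Plcg1 and Plcg2 of 0.09 and 0.17, with edgeR adjusted p-values from 0.699 to 0.841. The adaptors Lat2, Gab2 and Lcp2 had 0.08, 0.14 and 0.22. The adaptor Lat had 52 to 88 counts and a log2 fold change of 0.60 (edgeR adjusted p = 0.360), and Grap2 one of -0.67 (SE 0.24, edgeR adjusted p = 0.270).

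Of 10 transcription factors of mast cell development, 10 were tested and 0 called. Mitf, which pigment cells also use, measured 53.4 to 70.8 CPM (log2 fold change 0.04, edgeR adjusted p = 0.908). The others above 10 CPM, Lmo2, Stat5a, Stat5b, Meis2, Cebpa and Spi1, had log2 fold changes from -0.25 to 0.36, and edgeR adjusted p-values from 0.385 to 0.995. Of 7 genes for eicosanoid synthesis, 0 were called. Hpgds, the hematopoietic prostaglandin D synthase of mast cells and macrophages, measured 56.8, 64.7 and 45.5 CPM in DBA/2J and 79.4 and 83.7 CPM in Gpnmb+. Its DBA/2J pools were all below the Gpnmb+ pools, with a log2 fold change of -0.55 (SE 0.15, edgeR adjusted p = 0.165). Ptgs2, the inducible cyclooxygenase, measured 109.5, 7.36 and 9.24 CPM in DBA/2J and 13.6 and 11.1 CPM in Gpnmb+, so its log2 fold change of 1.77 (SE 1.23, edgeR adjusted p = 0.540) came from 1 pool. Alox5ap, Ptgs1 and Pla2g4a had log2 fold changes of 0.20, -0.11 and -0.20.

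Markers of other leukocytes were examined because Hdc, Fcer1a and Ms4a2 are not restricted to mast cells. Fcer1a and Ms4a2 are 2 of the 6 basophil markers, and the defining basophil proteases Mcpt8 and Prss34 had 0 to 3 and 0 counts, while Cd200r3, a receptor of both basophils and mast cells, had 26 to 44. Of 6 eosinophil markers, 3 were tested, and Epx was at 0 in every pool, while Siglecf had 13 to 73 counts, Ccr3 0 to 25 and Il5ra 1 to 12. Of 7 neutrophil markers, 6 were tested and 0 called, and Ly6g, the most specific of them, was at 0 counts in 3 of the 5 pools and at most 7 elsewhere. Their summed level was 268.5, 38.2 and 44.9 CPM in the DBA/2J pools and 118.2 and 21.6 CPM in Gpnmb+. DBA/2J pool 1, highest for neutrophil markers, was also highest for Hdc, Srgn, Il1rl1, Ccl2 and Ptgs2, and Gpnmb+ pool 2 was lowest for both Hdc and the neutrophil markers. DBA/2J pool 3, at 44.9 CPM for neutrophil markers, had the second highest Hdc level. The part of neutrophils in the level of Hdc was not tested.

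Of 7 endothelial markers, 7 were tested and 0 called, and their sum was lowest in DBA/2J pool 2, as that of the members was. It was 475, 354 and 454 CPM in DBA/2J and 416 and 383 CPM in Gpnmb+, and 5 of 7 had their lowest DBA/2J level in pool 2, with a median of 0.44 log2 units under DBA/2J pools 1 and 3. The 10 macrophage markers did not share the dip, with a median difference of 0.05 for pool 2, and only 2 of 10 were lowest there. Between genotypes, 9 of 10 macrophage markers had log2 fold changes above 0 (median 0.31), 3 did not overlap and 0 were called. Neutrophil, eosinophil and pigment cell markers had median differences below 0 for pool 2, at -1.59, -0.87 and -0.18. Those of T cell, corneal and conjunctival markers were above 0, at 0.59, 0.34 and 0.23. Markers of other tissues were read against the 34.5% of all genes whose pools did not overlap. Of 8 ciliary epithelium markers, 7 did not overlap and 1, Six6, was called higher in DBA/2J, with sums of 1002 to 1262 CPM against 420 to 550 CPM. Of 7 trabecular meshwork markers tested, 5 did not overlap and 2, Edn3 and Inmt, were called lower in DBA/2J, with sums of 1294 to 1431 CPM against 1573 to 1635 CPM. Of 8 pigment cell markers, 4 did not overlap and 1, Slc45a2, was called lower. Of 5 B and plasma cell markers tested, 4 did not overlap, all 5 had log2 fold changes below 0 and 0 were called. Of 7 corneal epithelium markers, 2 did not overlap and 0 were called, with sums of 4105 to 6641 CPM against 6944 to 8304 CPM. All 8 skeletal muscle markers had log2 fold changes above 0, 2 did not overlap and 0 were called. The adipocyte list summed to 47.6 to 64.7 CPM in DBA/2J and 102.7 and 234.2 CPM in Gpnmb+, carried by Car3, while Adipoq had 5 to 15 counts. The part of these tissues in the members' levels was not tested.

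**Figure D5:**
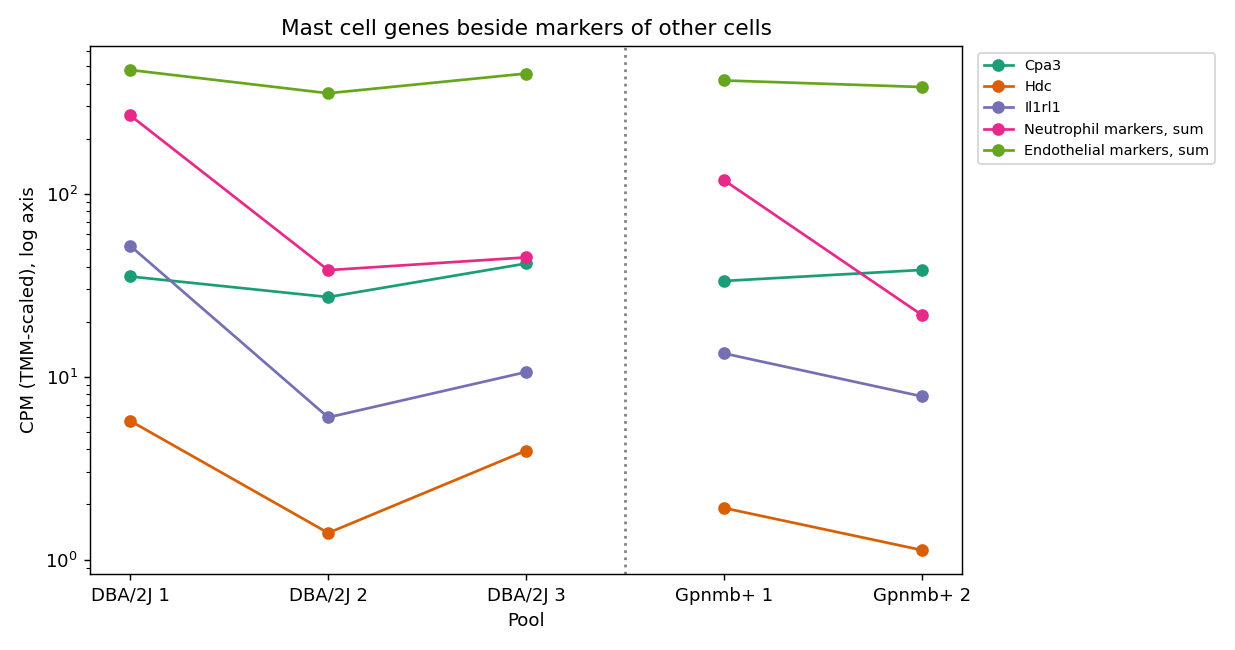
CPM of Cpa3, Hdc and Il1rl1 and the summed CPM of the neutrophil and endothelial marker lists in each of the 5 pools, on a log axis, with lines that join the points of 1 series and imply no order. Cpa3 and the endothelial list are lowest among the DBA/2J pools in pool 2, at 27.2 and 354 CPM, and the neutrophil list, Il1rl1 and Hdc are highest in DBA/2J pool 1, at 268.5, 52.0 and 5.74 CPM.

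The genes whose levels followed the members most closely were found by Pearson's r over the 5 pools with the members' mean standardised log2 CPM, among 15170 genes of at least 1 mean CPM. The closest 10 were Apba3 (r = 0.99), Lrrk2, Podxl, Arap3, Mrps2, Cyp11a1, Ramp2, Ppp2r2d, Lhx6 and Mocs3, the last with r = 0.98. With 5 pools and this many genes such values are a ranking only. All genes of 1 pool also share its depth and its tissue make-up. Among the listed genes, r was 0.92 for Tal1, 0.86 for Mcpt2 and 0.72 for Tpsab1. For Gata2 it was 0.47, for Slc18a2 0.24, for Fcer1g -0.05 and for Kit -0.83. Of the sex-linked genes, r was 0.69 for Xist and 0.02 to 0.04 for Ddx3y, Uty, Eif2s3y and Kdm5d. The 7 endothelial markers were divided, with r from 0.95 for Emcn and 0.94 for Tek through 0.45 for Kdr and 0.0488 for Flt4 to -0.68 for Prox1. Each member's own r with the mean of the other members was 0.67 to 0.92.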

How the data were processed

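RNA was sequenced from 5 pools of iridocorneal tissue. Reads were trimmed (fastp) and mapped to GRCm39 (STAR) by the authors, who deposited unnormalized counts per gene from uniquely mapped reads. GRCm39 is a C57BL/6J sequence while the mice are DBA/2J. Whether counting used strand is not given in the sources used here, which touches Cpa3, overlapped by Mir7007 (0 to 2 counts) and an antisense lncRNA. At most 13 of a member's 100-base transcript windows (Ms4a2, of 3302) also occur in another gene.

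The members and lists were chosen with earlier results of these data known. Names, positions and exon lengths came from the GENCODE GRCm39 annotation (56323 of 56941 identifiers). Counts were tested in R 4.3.3 with edgeR 4.0.16 (quasi-likelihood, TMM, at least 10 counts in at least 1 pool, no covariate, Benjamini-Hochberg). Calls needed an adjusted p-value of at most 0.05 and 1.5-fold. CPM used TMM-scaled library sizes, log2 CPM a prior count of 2. Standard errors and intervals were derived from edgeR's F statistic and its moderated degrees of freedom. DESeq2 1.42.0, ashr 2.2.63, limma 3.58.1 voom, other scalings and filters, unadjusted p-values, no fold minimum, a replicate block and leaving out each pool were alternatives. Named genes were the members, listed genes that were called, above 10 CPM in any pool or changed at least 1.5-fold, and the 10 closest in pattern. Others are named where a sentence turns on them. Tables were made in Python 3.11.15, and the test was checked on simulated data. Separate mice within a pool, proteomics and qPCR were not analysed here. Results for some listed genes are not reported here.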

Additional observations from a re-analysis of the deposited data

How the results depend on the processing

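None of the 120 member fits over 15 alternatives was called, with adjusted p-values from 0.166 to 0.996, and 11 had another sign than the main fit. Apart from fits with a pool left out, the sign turned only for Fcer1a, to 0.0067 without the count minimum. Without each pool in turn, the log2 fold change ranged from -0.20 to 0.10 for Cpa3, -0.0395 to 0.37 for Mcpt4, -0.21 to 0.0812 for Cma1, -0.19 to 0.0801 for Ms4a2, -0.19 to 0.23 for Fcer1a and -0.16 to 0.10 for Mrgprb1. Tpsb2 ranged from 0.32 to 0.60 and Hdc from 0.82 to 1.72, and DESeq2 with ashr moderation shrank them to 0.14 and 0.23. In the same fits Tpsab1 ranged from -0.0118 to 0.73, Kit from -0.45 to 0.23, Il1rl1 from -0.35 to 1.56 and Ptgs2 from -0.57 to 2.27. The cause was not tested. Where a Gpnmb+ pool is left out, the lone pool is assumed to vary like DBA/2J.

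Over all genes, 99 were called higher and 58 lower. DESeq2's Wald test called 545 and 382, DESeq2 with ashr 448 and 287, unadjusted p-values 827 and 883, and no count filter 242 and 118. With 1 pool left out the counts ran from 0 to 150 higher and 1 to 67 lower. Among the mast cell pathway lists, DESeq2's Wald test called 1 gene lower and unadjusted p-values 2, and leaving out a pool gave 0 to 1 higher.

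With the replicate number as a block, 120 genes were called higher and 100 lower, and 0 members. The numbers are shared only as names: deviations of pools with the same number correlated at 0.28 for number 1 and 0.25 for number 2, with only 2 shared numbers. Deviations were taken from the genotype mean, so those of the 2 Gpnmb+ pools mirror each other and the 2 correlations are not independent. Hdc, Ms4a2, Fcer1a and Mrgprb1 had the lowest counts of the members, 55 to 255, and what depth adds to their error was not tested.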

Other observations

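Ratios between members were examined after their values were seen. Tpsb2 over Cpa3, the tryptase against the carboxypeptidase, was 0.794, 0.701 and 0.703 across the DBA/2J pools against 0.590 and 0.468 in Gpnmb+. It was the only 1 of the 7 members set against Cpa3 whose DBA/2J and Gpnmb+ ratios did not overlap, and the difference was not tested. In CPM, the pools of the genotypes did not overlap for 34.5% of all genes tested. That share is for levels of single genes, and the share for ratios to Cpa3 was not computed, so 1 of 7 is a description only. Ms4a2 over Cpa3 had a small spread in DBA/2J, 0.05935 ± 0.00095 (SD, n = 3), and a larger one in Gpnmb+, at 0.0685 and 0.0523. Hdc over Cpa3 ranged from 0.0293 in Gpnmb+ pool 2 to 0.163 in DBA/2J pool 1.

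Among the proteases, Mcpt2 over Mcpt4 was 1.65, 1.67 and 1.84 in DBA/2J and 1.75 and 1.41 in Gpnmb+. Tpsb2 over Tpsab1 was 3.82, 5.81 and 6.30 in DBA/2J and 4.00 and 5.85 in Gpnmb+. Both ratios overlapped between the genotypes and are ratios of CPM, not scaled by length.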
